A study of Mus musculus with 6 samples.

Results

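Lipid uptake, lipid storage and PPAR-gamma target genes were followed as a group of 10 genes chosen by name from the 54532 genes of the deposited expression table: Pparg, Lpl, Cd36, Fabp4, Fabp5, Plin2, Angptl4, Acsl1, Pnpla2 and Cpt1a. Each of the 10 names matched 1 row. Gene expression was read by RNA-seq in 6 libraries of mouse primary macrophages of wild-type genotype. In 3 libraries the cells had been given vehicle and in 3 they had been given rmMETRNL for 6 h, and both groups were then exposed to the fungus Candida albicans for 6 h. METRNL (meteorin-like) is a secreted protein. Since both groups met the fungus, the comparison is between pretreatments only. The labels name neither the tissue the macrophages were taken from nor the animal or culture behind each sample, so the p-values here speak only of the spread among these 6 samples, and that spread may be technical. In the table the columns carry short codes, Wt for vehicle and Wr for rmMETRNL by their letters, and each direction given here rests on reading the codes in that way.

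PPAR-gamma, encoded by Pparg, is a nuclear receptor that binds DNA together with a retinoid X receptor and is switched on by fatty acids and their oxidised products. In macrophages its known targets include the scavenger receptor gene Cd36 and the fatty acid carrier gene Fabp4. Lipoprotein lipase (Lpl) releases fatty acids from circulating or locally held triglyceride, and Angptl4 encodes a secreted inhibitor of that enzyme. CD36 brings fatty acids and oxidised lipoproteins into the cell, FABP4 and FABP5 carry fatty acids in the cytosol, and ACSL1 joins them to coenzyme A. The fatty acids then enter lipid droplets, which PLIN2 coats and which the lipase encoded by Pnpla2 (ATGL) breaks down again, or they enter mitochondria through CPT1A for oxidation.

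Values are FPKM, fragments scaled to gene length and to library size. They resolve into whole reads (or read pairs), between 13235001 and 18145733 in a library. Replicates differed by more than sampling noise (chi-square per degree of freedom of 4.66 to 9.56 between libraries of 1 group), so no library was a copy of another. Library 3 of the rmMETRNL group had the strongest trend with gene length. Its deviation from its group had a correlation of 0.205 with log length across genes, against -0.142 to 0.0998 in the other 5. The Metrnl transcript itself had 145 ± 6.41 and 149 ± 4.87 FPKM in the vehicle and rmMETRNL groups (mean ± SD, n = 3 per group, as for all pairs of values below; adjusted p = 0.739 in limma).

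Lpl was the member with the largest difference, 13.1 ± 0.601 and 16.7 ± 0.280 FPKM in the vehicle and rmMETRNL groups, 27.9% higher with rmMETRNL. Acsl1 was 21.4% higher, Fabp4 9.72% and Cd36 7.73%, while Plin2, the most abundant member, was at the same level within 0.0684%. Pparg itself had a difference of -9.01%. On log2(FPKM + 1), limma with Benjamini-Hochberg adjustment over the 9867 genes that averaged 1 FPKM or more called 0 of the 10 members at an adjusted p of 0.05, as it called 0% of all genes tested. At an unadjusted p under 0.05 it gave 1 member, Lpl, against 14.7% of all genes (7.54% higher and 7.13% lower with rmMETRNL). A second method, limma voom on the recovered reads, called 1 of 10 members, Lpl, against 0.618% of all genes (0.405% higher and 0.213% lower with rmMETRNL). The groups did not overlap in 3 of 10 members, Lpl, Fabp4 and Acsl1, with all 3 rmMETRNL values above all 3 vehicle values. Over all tested genes 10.9% had groups that did not overlap with rmMETRNL higher and 10.6% with rmMETRNL lower. The median log2 difference of the members was 0.02, beside -0.0056 over all tested genes, with 6 of 10 positive beside 48.4% of all.

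**Figure D1:**
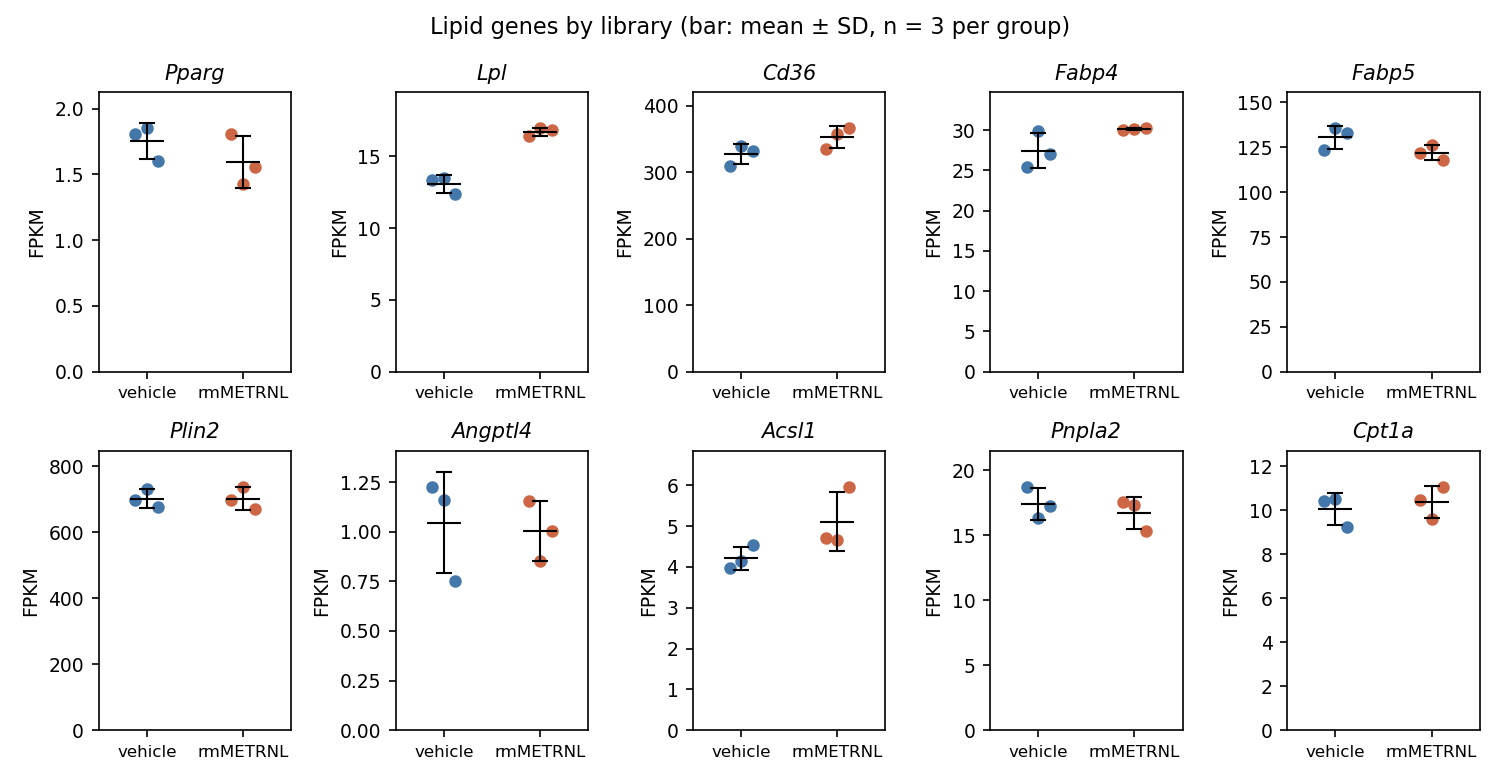
FPKM (linear axis from 0) of each of the 10 genes in the 3 vehicle and 3 rmMETRNL libraries, with the mean and SD as bars. The Lpl points of the 2 groups are far apart (12.4 to 13.5 against 16.4 to 16.9 FPKM), those of Fabp4 and Acsl1 just separate, and those of the other 7 genes overlap.

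**Figure D2:**
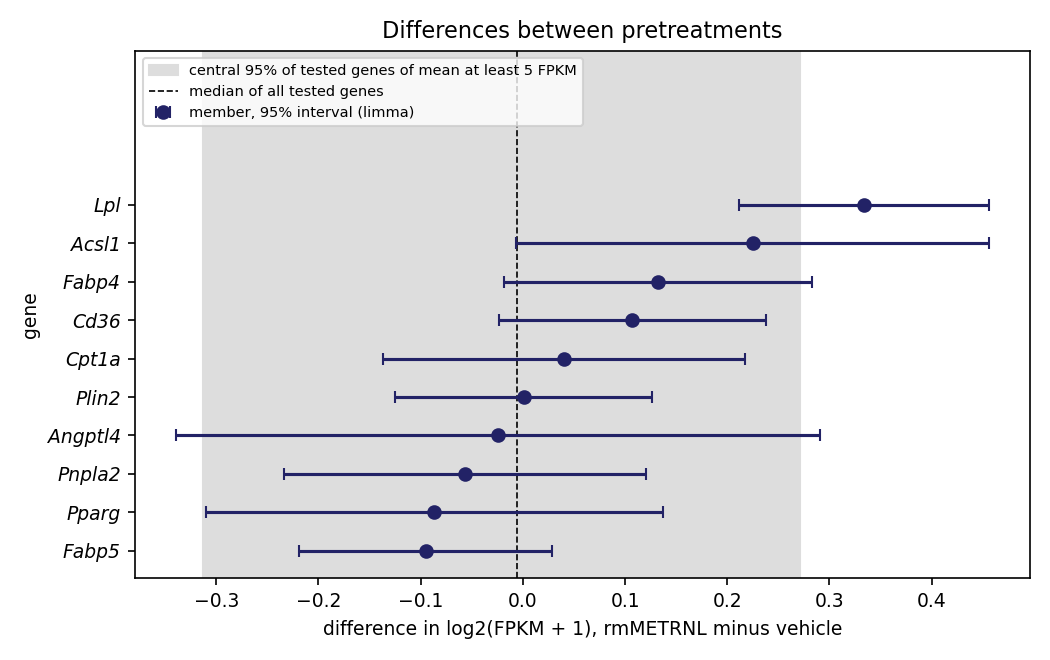
Difference in log2(FPKM + 1), rmMETRNL minus vehicle, of each gene with its 95% interval from limma. The dashed line is the median of all tested genes and the grey band holds the central 95% of tested genes that averaged 5 FPKM or more (-0.31 to 0.27). The Lpl point lies beyond the band, at 0.33.

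Pparg (ENSMUSG00000000440, chromosome 6, 115360951 to 115490399, plus strand, GRCm38) was a low transcript. It had 1.81, 1.85 and 1.60 FPKM in vehicle libraries 1, 2 and 3 and 1.81, 1.42 and 1.55 FPKM in rmMETRNL libraries 1, 2 and 3, from 66 to 86 reads per library. The groups overlapped. On the log2 scale the difference was -0.09 (SE 0.09, 95% interval -0.31 to 0.14, adjusted p = 0.715 in limma), and it was -0.15 without rmMETRNL library 1 and -0.04 without rmMETRNL library 2. The spread within the groups, 7.67% and 12.3% of the mean, was close to the 11.5% that counting error alone gives at this depth. The table has 1 row for the gene, so its alternative start sites cannot be told apart in these values. Among the other PPAR genes, Ppard, named here after its values were seen, was more abundant than Pparg, at 12.9 ± 0.226 and 12.05 ± 0.566 FPKM (adjusted p = 0.447 in limma). The groups did not overlap in Ppard, which was lower with rmMETRNL. Ppara had a mean of 0.0033 FPKM over the libraries.

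RefSeq promoter sequences (GRCm38.p6, 250 bases before to 50 after a start site) were at hand for 6 of the 10 genes, with 9 start sites in all: 3 for Pparg, 2 for Acsl1 and 1 each for Cd36, Plin2, Pnpla2 and Cpt1a. Lpl, Fabp4, Fabp5 and Angptl4 had no entry. The half-site that PPAR and retinoid X receptors recognise, AGGTCA, was searched as exact letters on both strands, as was the full direct repeat AGGTCANAGGTCA, each match of which also holds the half-site, and the core of the hypoxia response element, ACGTG. The half-site occurred in 5 of the 9 promoters and in 16.3% of all 32851 promoters of the table. The full repeat occurred in 0 of 9 and in 0.04% of all, and ACGTG in 1 of 9 (Plin2) and in 19.6% of all. The half-site matches are shown because PPAR-gamma targets are the subject and they are the matches these promoters hold. Each is printed 5′ to 3′ on the gene's own strand with the match in capitals (TGACCT where it reads on the other strand), with 12 bases on either side, fewer where the start site is reached.
Pparg, first start site, chr6:115361104-115361133: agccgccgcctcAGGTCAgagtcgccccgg
Pparg, second start site, chr6:115362328-115362348: agggacgcgaggAGGTCAaga
Cd36, chr5:17836107-17836136: ctctgcactttaTGACCTgagattttcagg
Plin2, chr4:86670260-86670289: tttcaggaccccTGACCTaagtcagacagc
Cpt1a, chr19:3323195-3323224: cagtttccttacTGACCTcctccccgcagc
These matches start 28 and 9 bases before the Pparg start sites and 228, 218 and 94 bases before those of Cd36, Plin2 and Cpt1a. A stretch just after the Cd36 start site was found in no transcript of that gene in GENCODE M21. For the other start sites printed here it was found. The Cd36 start site lies inside the annotated gene, so its sequence may not be the promoter of the transcript measured. The 4 genes with a match, Pparg, Cd36, Plin2 and Cpt1a, all had overlapping groups, as most tested genes did (21.5% of all did not overlap). Acsl1 and Pnpla2 were also searched and held no half-site. The groups did not overlap in Acsl1 and overlapped in Pnpla2. Lpl and Fabp4, whose groups did not overlap, had no promoter entry to search. With only 6 of the 10 genes searched, matches cannot be set against the differences between groups here. A match is a description of letters and not a bound site.

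Lpl (ENSMUSG00000015568, chromosome 8, 68880491 to 68907448, plus strand), the lipase that frees fatty acids from triglyceride, had 13.4, 13.5 and 12.4 FPKM in vehicle libraries 1, 2 and 3. It had 16.4, 16.9 and 16.8 FPKM in the rmMETRNL libraries, from 1885 to 2785 reads per library. Every rmMETRNL library was above every vehicle library, and the gap between the groups was wider than the range within either. In log2 units the groups differed by 0.33 (SE 0.05, 95% interval 0.21 to 0.46), with an unadjusted p = 4.01e-04 in limma that ranked 22 among 9867 genes and an adjusted p of 0.151. Voom gave a log2 difference of 0.35 (SE 0.06) and an adjusted p of 0.0182. Lpl was not called by voom when vehicle library 3 was left out (log2 difference 0.31, adjusted p = 0.0854), nor when rmMETRNL library 2 was (0.34, adjusted p = 0.107). Lpl and Acsl1 are the longest members in the table, at 10478 and 10483 bases. With each library's trend with gene length removed, the Lpl difference was 0.31 (adjusted p = 0.147 in limma). Of the 31-base words of its principal transcript 2.49% occur in other genes.

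Angptl4 (ENSMUSG00000002289, chromosome 17, 33773750 to 33781575, minus strand), whose product inhibits lipoprotein lipase, was the lowest member. It had 1.23, 1.16 and 0.752 FPKM in the vehicle libraries and 1.16, 0.853 and 1.01 FPKM in the rmMETRNL libraries, from 44 to 61 reads. The groups overlapped, with vehicle library 3 the lowest of all 6. limma gave Angptl4 a log2 difference of -0.02 (SE 0.13, 95% interval -0.34 to 0.29, adjusted p = 0.952 in limma). Counting error alone gives 13.9% of the mean at this depth, and the spread within the groups was 24.5% and 15.0%. The difference turned positive under several settings, quantile normalization among them (0.02). The ratio of Lpl to Angptl4 within a library was 10.9, 11.6 and 16.5 with vehicle and 14.2, 19.9 and 16.7 with rmMETRNL. The groups overlapped in this ratio, with 2 of 3 rmMETRNL libraries above the vehicle range (log2 difference 0.39, exact permutation test, two-sided, p = 0.2, adjusted p = 0.3 over 3 ratios). With 3 samples against 3 this test cannot go below 0.1.

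Cd36 (ENSMUSG00000002944, chromosome 5, 17781690 to 17888801, minus strand), the receptor for fatty acids and oxidised lipoproteins, was the second most abundant member and ranked 143 among the 9867 tested genes. It had 310, 340 and 332 FPKM in the vehicle libraries and 334, 358 and 366 FPKM in the rmMETRNL libraries. The groups overlapped only through rmMETRNL library 1, which lay below vehicle library 2. For Cd36 the log2 difference was 0.11 (SE 0.05, 95% interval -0.02 to 0.24, adjusted p = 0.420 in limma), and it was 0.07 without vehicle library 1. With 16321 to 21677 reads, counting error was 0.728% of the mean, against a spread within the groups of 4.75% and 4.64%.

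The fatty acid carriers Fabp4 and Fabp5 had differences of opposite sign, with 95% intervals that both include 0. Fabp4 (ENSMUSG00000062515, chromosome 3, 10204088 to 10208576, minus strand) had 25.5, 29.8 and 27.0 FPKM in the vehicle libraries and 29.995, 30.1 and 30.2 FPKM in the rmMETRNL libraries. The groups did not overlap, though vehicle library 2 lay just under the rmMETRNL values. limma put the Fabp4 log2 difference at 0.13 (SE 0.06, 95% interval -0.02 to 0.28, adjusted p = 0.389 in limma), and it was 0.08 without vehicle library 1. The rmMETRNL values lay within 0.356% (SD relative to the mean), closer than the 2.24% that counting error gives at 1733 to 2209 reads.

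Fabp5 (ENSMUSG00000027533, chromosome 3, 10012548 to 10016607, plus strand) had 123, 135 and 133 FPKM in the vehicle libraries and 122, 126 and 118 FPKM in the rmMETRNL libraries. The groups overlapped through vehicle library 1 and rmMETRNL library 2. In Fabp5 the log2 difference was -0.10 (SE 0.05, 95% interval -0.22 to 0.03, adjusted p = 0.452 in limma). Fabp5 is uncertain, because 33.1% of the 31-base words of its principal transcript occur in other genes, all 5 of them processed pseudogenes. The pseudogene that shares the most, Gm6166 (27.2% of the words), had a mean of 8.80 and 8.78 FPKM in the vehicle and rmMETRNL groups. Fabp4 shared 0% of its words with other genes. The ratio of Fabp4 to Fabp5 within a library was 0.207, 0.220 and 0.203 with vehicle and 0.246, 0.239 and 0.256 with rmMETRNL. All 3 rmMETRNL ratios lay above the vehicle range (log2 difference 0.23), and the exact permutation test, two-sided, gave p = 0.1, the smallest this design allows (adjusted p = 0.3 over 3 ratios).

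**Figure D3:**
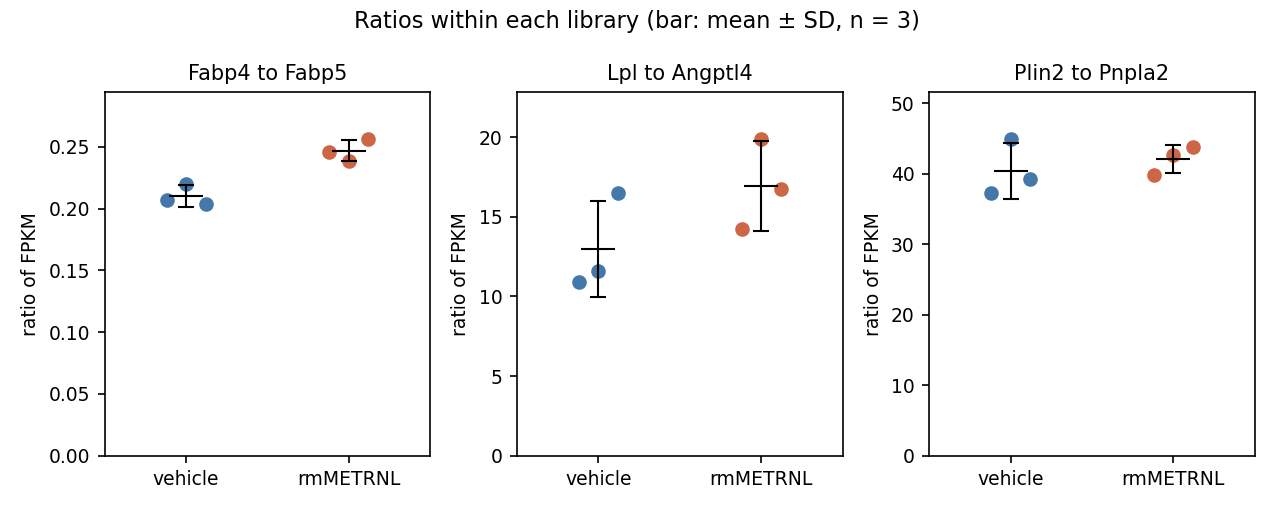
Ratio of FPKM of 3 gene pairs within each library (linear axis from 0), with the mean and SD of each group as bars. The Fabp4 to Fabp5 ratios separate (0.203 to 0.220 against 0.239 to 0.256), and the groups overlap in the Lpl to Angptl4 and Plin2 to Pnpla2 ratios.

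Acsl1 (ENSMUSG00000018796, chromosome 8, 46471037 to 46536051, plus strand), which activates long-chain fatty acids, had 3.97, 4.13 and 4.53 FPKM in the vehicle libraries. It had 4.71, 4.67 and 5.96 FPKM in the rmMETRNL libraries, from 579 to 926 reads. The groups did not overlap, and rmMETRNL library 3 was the highest of all. For Acsl1 limma gave a log2 difference of 0.22 (SE 0.10, 95% interval -0.0067 to 0.46, adjusted p = 0.351 in limma). Without rmMETRNL library 3, the library with the strongest trend with gene length, it was 0.13. With each library's trend with gene length removed, the Acsl1 difference was 0.20. Of the exon bases of Acsl1, 9.91% are shared with Gm45244 on the other strand, which was at no more than 0.0919 FPKM in any library.

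Plin2 (ENSMUSG00000028494, chromosome 4, 86648386 to 86670060, minus strand), the lipid droplet coat, was the most abundant member and ranked 62 among the tested genes. It had 697, 733 and 676 FPKM in the vehicle libraries and 699, 738 and 670 FPKM in the rmMETRNL libraries, from 34391 to 43232 reads. The groups covered nearly the same range. The log2 difference was 0.00066 (SE 0.05, adjusted p = 0.996 in limma), with a 95% interval of -0.13 to 0.13. Its sign changed with the scaling (-0.03 with quantile normalization and -0.0074 in voom). An unprocessed pseudogene, Gm12551, shares 8.45% of its words and was listed at 0 in all 6 libraries.

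Pnpla2 (ENSMUSG00000025509, chromosome 7, 141455198 to 141460743, plus strand), the lipase that starts the breakdown of stored triglyceride, had 18.7, 16.3 and 17.2 FPKM in the vehicle libraries and 17.6, 17.3 and 15.3 FPKM in the rmMETRNL libraries. The groups overlapped, with rmMETRNL library 3 the lowest. The log2 difference was -0.06 (SE 0.07, 95% interval -0.23 to 0.12, adjusted p = 0.771 in limma), and without that library it was 0.0018. The ratio of Plin2 to Pnpla2 was 40.4 ± 3.97 with vehicle and 42.1 ± 2.01 with rmMETRNL (n = 3 each, exact permutation test, two-sided, p = 0.6, adjusted p = 0.6). Its log2 difference, 0.06, lay between 0.0034 and 0.14 when 1 library was left out.

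Cpt1a (ENSMUSG00000024900, chromosome 19, 3323301 to 3385732, plus strand), the gate for entry of fatty acids into mitochondria, had 10.4, 10.5 and 9.22 FPKM in the vehicle libraries and 10.4, 9.62 and 11.1 FPKM in the rmMETRNL libraries. The groups overlapped, vehicle library 3 being the lowest and rmMETRNL library 3 the highest. The log2 difference was 0.04 (SE 0.07, 95% interval -0.14 to 0.22, adjusted p = 0.845 in limma), and it was -0.02 without vehicle library 3 and -0.0029 without rmMETRNL library 3.

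The members covered a wide range of levels in these macrophages. By mean FPKM over the 6 libraries the order was Plin2 (702), Cd36 (340), Fabp5 (126), Fabp4 (28.8), Pnpla2 (17.1), Lpl (14.9), Cpt1a (10.2), Acsl1 (4.66), Pparg (1.67) and Angptl4 (1.03). Pnpla2 and Lpl were the 1 pair of neighbours whose values over the libraries overlapped. FPKM depends on the gene length in the table, which for 8 of the 10 genes equals all annotated exon bases of GENCODE M21 together. For the carriers this is far more than the main transcript: the length of Fabp4 in the table is 4489 bases and that of its principal transcript 896, and for Fabp5 they are 3567 and 987 bases. With the same reads divided by the principal transcript, a choice made after seeing the data, Fabp4 stood at 144 and Fabp5 at 456, and Fabp5 moved above Cd36 (359). Lpl at 37.9 then lay above Pnpla2 at 28.7, and Acsl1 at 12.5 and Cpt1a at 10.2 were the 1 pair of neighbours that overlapped. The length cancels in a ratio of FPKM of 1 gene between groups, though not exactly in a difference of log2(FPKM + 1).

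**Figure D4:**
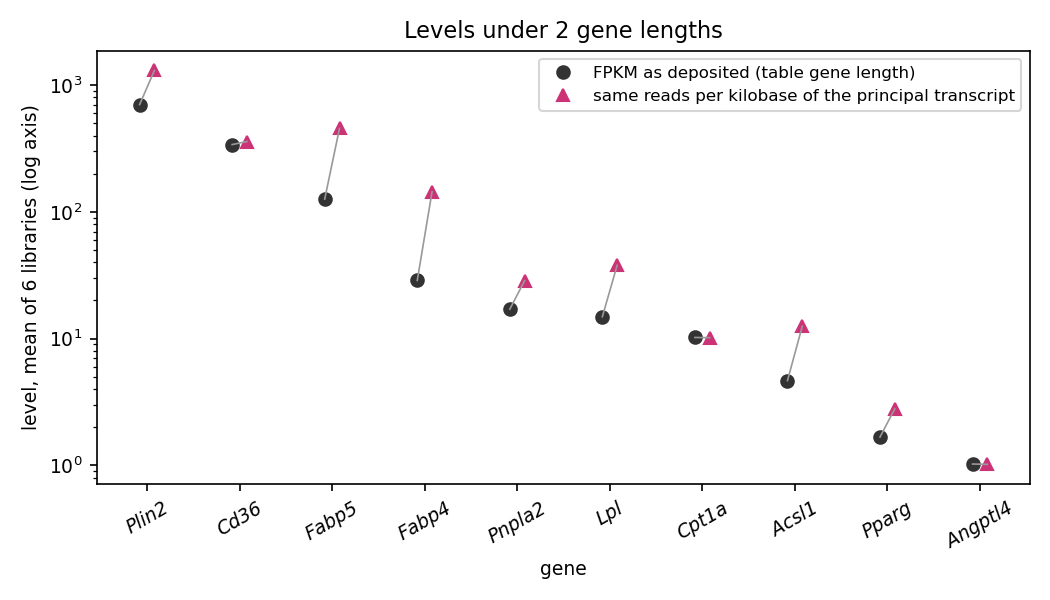
Mean level over the 6 libraries of each gene (log axis), as deposited FPKM (circles) and as the same reads per kilobase of the principal GENCODE transcript (triangles). Fabp4 moves most, from 28.8 to 144, and Fabp5 passes Cd36 (456 against 359).

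Other genes of lipid handling, 100 in 5 lists by function, were taken beside the members. Of these, 71 averaged 1 FPKM or more, and 0 were called in either direction by limma or by voom. At an unadjusted p under 0.05 there were 7 higher and 6 lower among the 71, beside 7.54% and 7.13% of all tested genes. The groups did not overlap in 11 with rmMETRNL higher and 9 with rmMETRNL lower, beside 10.9% and 10.6% of all. The median log2 difference of the 71 was -0.02.

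Among PPAR partners and cofactors 14 of 18 genes were tested, 7 with a positive difference (median -0.0045). The retinoid X receptor gene Rxra had 16.3 ± 0.388 and 15.2 ± 0.899 FPKM in the vehicle and rmMETRNL groups, and the coactivator gene Ncoa3 14.7 ± 0.939 and 15.6 ± 0.909 FPKM. Another coactivator gene, Ncoa1, had 2.31 ± 0.201 and 2.95 ± 0.169 FPKM (adjusted p = 0.262 in limma). In this list the groups did not overlap in 2 genes with rmMETRNL higher (Ncoa1 among them) and in 2 with rmMETRNL lower (Ppard among them). Over all tested genes these shares were 10.9% and 10.6%.

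In the uptake list 16 of 21 genes were tested, 7 with a positive difference (median -0.02). Lrp1, a large endocytic receptor, had 85.7 ± 8.92 and 67.0 ± 8.42 FPKM, and Olr1, the oxidised lipoprotein receptor LOX-1, 70.5 ± 3.13 and 82.6 ± 9.14 FPKM. Their groups did not overlap, and they pointed in opposite directions (adjusted p of 0.273 and 0.319 in limma). Of the 16 genes, 3 did not overlap with rmMETRNL higher and 3 with it lower, beside 10.9% and 10.6% of all tested genes. Fabp7, a further fatty acid carrier, had the smallest p of all 71 genes, with 5.97 ± 0.189 and 7.94 ± 0.771 FPKM (log2 difference 0.36, SE 0.07, adjusted p = 0.190 in limma), from 97 to 171 reads. Sel1l, needed for lipoprotein lipase to leave the endoplasmic reticulum, had 15.4 ± 0.516 and 17.9 ± 1.30 FPKM (adjusted p = 0.266).

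For triglyceride synthesis and droplet coats 15 of 25 genes were tested, 8 with a positive difference (median 0.03). Hilpda, whose product sits on lipid droplets and inhibits ATGL, was the most abundant, at 648 ± 6.25 and 727 ± 23.0 FPKM (adjusted p = 0.224 in limma). The cholesterol esterifying enzyme gene Soat1 had 67.3 ± 1.65 and 73.6 ± 2.55 FPKM, and Dgat1, an enzyme of the last step of triglyceride synthesis, 9.72 ± 0.528 and 8.47 ± 0.437 FPKM. Other droplet coat genes known from fat cells, Plin1, Cidea and Cidec, had means of 0.0044, 0 and 0 FPKM.

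Of the lipolysis genes 6 of 10 were tested, 3 with a positive difference (median 0.01). G0s2, the gene of another ATGL inhibitor, had 1.59, 0.773 and 1.58 FPKM in the vehicle libraries and 1.99, 2.49 and 3.95 FPKM in the rmMETRNL libraries, from 9 to 51 reads (log2 difference 0.71, SE 0.23, adjusted p = 0.274 in limma). Abhd5, the gene of the ATGL activator, had 11.3 ± 0.391 and 10.1 ± 0.329 FPKM (adjusted p = 0.315), and the lysosomal lipase gene Lipa 124 ± 3.44 and 133 ± 5.82 FPKM. The groups did not overlap in these 3 genes, 2 with rmMETRNL higher and 1 with it lower, beside 10.9% and 10.6% of all tested genes. G0s2 and Abhd5 were named for their small p, so their separation is not a further result. In the fatty acid oxidation list 20 of 26 genes were tested, 10 with a positive difference (median -0.0041). The acyl-CoA dehydrogenase gene Acadl had 89.1 ± 0.907 and 90.5 ± 1.29 FPKM and the electron carrier gene Etfa 36.4 ± 4.21 and 38.2 ± 1.79 FPKM. Acadm, another acyl-CoA dehydrogenase gene, had 4.65 ± 0.296 and 3.91 ± 0.356 FPKM, and Decr1 1.38 ± 0.196 and 1.75 ± 0.120 FPKM (adjusted p of 0.315 and 0.369 in limma).

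**Figure D5:**
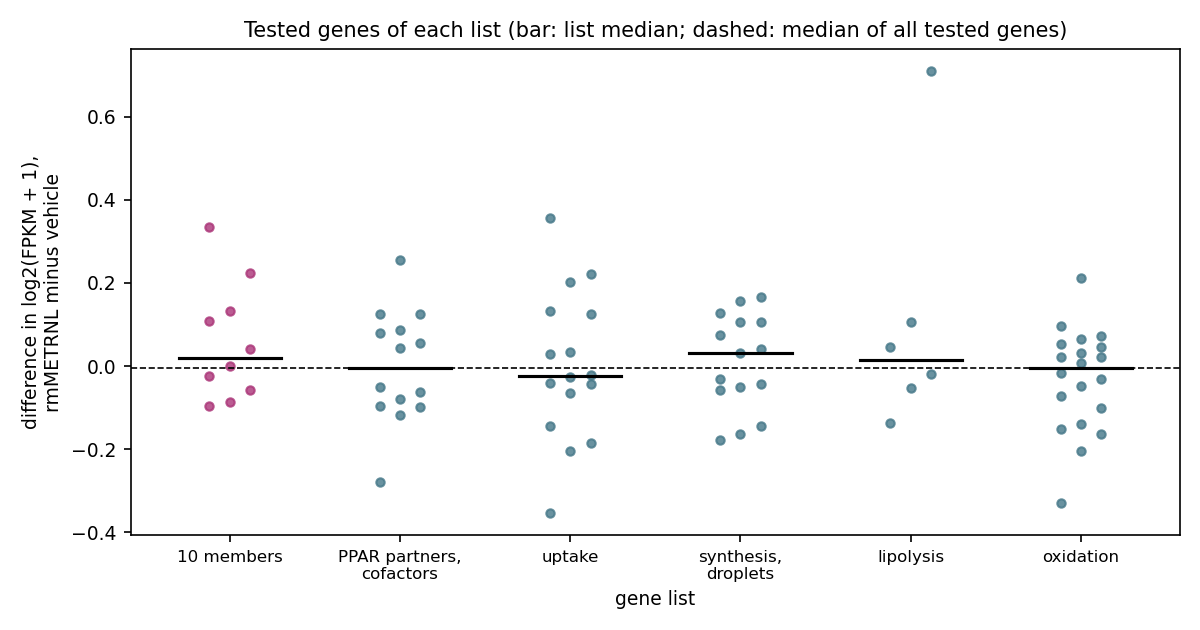
Difference in log2(FPKM + 1), rmMETRNL minus vehicle, of each tested gene (points) in the 10 members and in the 5 lists of other lipid genes, with list medians as bars and the median of all tested genes dashed. Each list spreads to both sides of the dashed line, and the highest point is G0s2 at 0.71.

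Lpl, Cd36 and Fabp4 are also known from fat cells and capillary endothelium, and markers of other cells were checked beside them. All 8 macrophage markers were above 1 FPKM, and they summed to 9032 to 10001 FPKM in vehicle and 9444 to 9843 FPKM in rmMETRNL libraries, with Lyz2 the highest at 5460 ± 382 and 5567 ± 139 FPKM. None was called by limma or voom, and 1 had an unadjusted p under 0.05 in limma, beside 14.7% of all tested genes. In 4 of the 8, named after their values were seen, the groups did not overlap, beside 21.5% of all tested genes. Adgre1 (log2 difference 0.15) and Csf1r (0.08) were higher with rmMETRNL, and Cd68 (-0.09) and Mertk (-0.25) were lower. The part of these markers in the lipid gene results was not tested. The 9 adipocyte markers summed to 0.323 to 0.644 FPKM in vehicle libraries and 0.412 to 0.556 FPKM in rmMETRNL libraries, 4 of them (Lep, Cidec, Cfd and Cyp2e1) were listed at 0 in every library, and the highest was Ucp1 at 0.307 ± 0.124 and 0.370 ± 0.0728 FPKM. The 7 endothelial and fibroblast markers summed to 8.33 to 9.11 and 8.31 to 9.20 FPKM, with Dcn the highest at 4.27 ± 0.259 and 4.30 ± 0.115 FPKM. In a bulk sample fewer cells of a type and less RNA per cell cannot be told apart.

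The protocol text in the labels mentions retinas. The 10 retina markers summed to 0.453 to 0.614 FPKM in vehicle and 0.684 to 0.867 FPKM in rmMETRNL libraries, with Crx and Rpe65 listed at 0 in every library and Pde6b the highest at 0.351 ± 0.0687 and 0.522 ± 0.171 FPKM. Of 6 resident peritoneal markers 3 were above 1 FPKM, led by Prg4 (4.39 ± 0.595 and 3.31 ± 0.428 FPKM), and the list summed to 8.25 to 9.80 FPKM in vehicle and 7.57 to 8.01 FPKM in rmMETRNL libraries. Of 6 alveolar macrophage markers 2 were above it, led by Chil3 (1254 ± 10.3 and 1247 ± 32.2 FPKM). The list summed to 1267 to 1288 and 1246 to 1308 FPKM, most of it Chil3. The other marker above 1 FPKM, Marco, named after its values were seen, had 24.0 ± 2.69 and 27.6 ± 1.68 FPKM (log2 difference 0.20, adjusted p = 0.351 in limma), with overlapping groups. Siglecf, Car4 and Ear2 had means of 0.246, 0.493 and 0.673 FPKM over the libraries, and Krt79 was listed at 0. Of 8 neutrophil markers 2 averaged 1 FPKM or more, led by Mmp8 (71.9 ± 1.56 and 77.0 ± 4.56 FPKM). The list summed to 78.8 to 79.8 and 79.5 to 89.8 FPKM, most of it Mmp8. Ly6g and Mpo had means of 0.290 and 0.0320 FPKM over the libraries, and Elane was listed at 0. The T cell list was led by Trac (1.02 ± 0.651 and 2.01 ± 1.03 FPKM) and summed to 2.14 to 2.88 and 2.70 to 4.41 FPKM. The B cell list was led by Cd79a (2.49 ± 0.425 and 2.86 ± 0.274 FPKM) and summed to 5.07 to 6.03 and 6.05 to 6.57 FPKM. The sums of the retina, peritoneal and B cell lists did not overlap between the groups. Among single tested genes 21.5% did not overlap. The part of these 3 lists in the lipid gene results was not tested.

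The protein-coding genes whose values over the 6 libraries followed Pparg most closely were Cops6, Mroh1 and Mak16. Among 4992 protein-coding genes that averaged 5 FPKM or more they had the smallest Euclidean distances from the Pparg values, 0.0466, 0.0676 and 0.0705. Distances were taken on log2(FPKM + 1), each gene centred on its mean over the libraries. On this scale the Pparg difference between groups (-0.09) is smaller than its plain log2 ratio (-0.14). Cops6 had 20.6 ± 0.731 and 19.2 ± 1.55 FPKM, Mroh1 15.5 ± 0.575 and 14.4 ± 0.831 FPKM and Mak16 7.52 ± 0.636 and 6.99 ± 0.492 FPKM. With 6 libraries and 66 to 86 Pparg reads, likeness of this kind is a description.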

How the data were processed

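RNA-seq covered 6 libraries, 3 per group. The authors deposited FPKM values per gene. GRCm38 and mm10 are the builds named in the submitters' processing notes. For the aligner, counter, annotation release and strand setting nothing is given in the sources used here. Multiplied by gene length, 100% of the deposited FPKM values came out as whole reads (tolerance 0.05 reads) once scaled by a constant for the library, so reads were recovered. At 1 kb, 10 reads are 0.549 to 0.748 FPKM. Genes averaging 1 FPKM or more were tested with limma 3.58.1 (R 4.3.3, variance trend) on log2(FPKM + 1), two-sided, Benjamini-Hochberg adjusted, threshold 0.05. Fold changes on this scale understate those of low genes. Voom used recovered reads. The 95% intervals come from limma. Annotation and 31-base words came from GENCODE M21, whose start and end matched the table for 8 of 10 members. Principal transcripts are the longest that GENCODE tags as APPRIS principal.

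The members and lists were chosen with earlier results of these data known. Named genes are the members, Metrnl, of each lipid list the 2 most abundant and the 2 with the smallest p, of each marker list the most abundant, and the 3 genes closest to Pparg. Some genes that this rule names are not reported here. Genes named beside these as listed at or near 0, or as sharing sequence, were chosen after their values were seen. Alternatives were other pseudocounts, filters, scalings, variance models, voom, a replicate block, an adjusted p of 0.1 and leaving out each library.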

Additional observations from a re-analysis of the deposited data

How the results depend on the processing

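Of 193 values of single members under the alternatives, 174 kept their direction and their side of the threshold. The number of genes called was 0 as reported, 5 without a filter on low values, 1 after rescaling to TPM, 1 with array weights, 61 in voom and 91 in voom with TMM factors. Members called were 1 in both voom fits (Lpl, log2 difference 0.35 and 0.36, adjusted p = 0.0182 and 0.0135). A choice made after seeing the data, voom without each library in turn, called 0 to 1 members, and the Lpl difference was 0.31 to 0.37 (adjusted p of 0.0213 to 0.107). In limma the Lpl difference was 0.30 to 0.35 without 1 library, and its lowest adjusted p was 0.0950, with a minimum of 5 FPKM. Under that minimum Pparg, Angptl4 and Acsl1 were not tested. Small differences changed sign: Plin2 (-0.032 with quantile normalization, -0.0074 in voom, -0.035 to 0.034 without 1 library), Angptl4 (0.019 with quantile normalization, 5.42e-05 in voom with TMM, -0.13 to 0.040 without 1 library), Cpt1a (-0.016 to 0.089 without 1 library) and Pnpla2 (-0.10 to 0.0018 without 1 library). The cause was not tested. The median difference of the members was -0.02 to 0.06 without 1 library. The other lipid genes had 0 calls under the 20 alternatives run for them, which leave out voom without 1 library. The ratio differences kept their sign in all alternatives run.

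Samples with the same replicate number did not deviate together (correlations across genes of -0.0454 to 0.0074), so the numbers were not taken as pairs. A fit with the replicate block called 0 genes and 0 members (Lpl adjusted p = 0.277 in limma). Depth limits Pparg and Angptl4 most, at 44 to 86 reads per library.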
